A study of Mus musculus with 30 samples.

Results

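The interferon-stimulated genes were 39 genes that cells switch on when interferon reaches them, chosen by symbol. A row was found for 38 of the 39 in at least 1 of the 3 deposited tables, with 38 of 14259 genes at postnatal day (PND) 1, 38 of 14259 at PND21 and 37 of 13091 at PND42. Igtp was not analysed here, and Oas3 was not analysed at PND42. The study asked how cadmium before birth altered the liver after birth. It covered whole livers of CD-1 mice, an outbred stock, in 30 libraries. Exposed animals carried the label cadmium chloride at 500 ppb, given during gestation per the title of the series, and the others the label Control. Whether animals of 1 group shared a litter is not stated. PND1 had 4 cadmium and 4 control females, PND21 had 3 cadmium and 3 control females, and PND42 had 4 cadmium and 4 control females and 4 cadmium and 4 control males.

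Interferons are secreted proteins that warn cells of infection. Type I interferon acts through receptors whose kinases activate STAT proteins, and STAT2 with a STAT partner and IRF9 then binds a DNA sequence called the interferon-stimulated response element (ISRE). Interferon gamma works mainly through STAT dimers at another sequence, the gamma-activated site (GAS). The products of the target genes detect viral RNA or DNA, block viral replication and trafficking, or damp the signal. In liver, hepatocytes, Kupffer cells and sinusoidal endothelium all respond. In whole tissue, fewer cells of a type and less RNA per cell cannot be told apart.

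Promoter sequence was available for 29 of the 39 genes, from RefSeq on GRCm38.p6, with 250 bases before and 50 after each start. The core of the ISRE was searched as TTTCNNTTTC, which reads GAAANNGAAA on the other strand, and matches were allowed to overlap. It was found in 17 of the 29 genes (58.6%), against 3.99% of all genes with a window. The GAS letters TTCNNNGAA, the same on both strands, occurred in 8 of the 29 genes (27.6%), against 9.55% of all genes with a window. The following 7 promoters are shown because the results below turn on them or because they carry the densest matches. Isg15 and Ifit1 are classical targets, Gbp2, Bst2, Irgm1, Trim30a and Irf7 changed in exposed females at PND42. Each line holds the 150 bases before the start, 5′ to 3′ on the gene's strand, with ISRE matches in capitals.
Isg15: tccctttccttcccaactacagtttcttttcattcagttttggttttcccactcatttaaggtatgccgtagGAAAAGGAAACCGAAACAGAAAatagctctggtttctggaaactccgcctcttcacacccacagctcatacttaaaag
Ifit1: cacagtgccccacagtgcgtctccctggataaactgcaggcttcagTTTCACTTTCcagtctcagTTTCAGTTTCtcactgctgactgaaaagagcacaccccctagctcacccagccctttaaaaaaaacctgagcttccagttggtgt
Gbp2: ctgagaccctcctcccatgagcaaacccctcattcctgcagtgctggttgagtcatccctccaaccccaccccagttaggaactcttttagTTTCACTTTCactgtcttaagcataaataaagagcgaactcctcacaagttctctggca
Bst2: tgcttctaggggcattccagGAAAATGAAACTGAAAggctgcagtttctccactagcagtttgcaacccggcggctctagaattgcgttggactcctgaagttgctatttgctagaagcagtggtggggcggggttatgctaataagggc
Irgm1: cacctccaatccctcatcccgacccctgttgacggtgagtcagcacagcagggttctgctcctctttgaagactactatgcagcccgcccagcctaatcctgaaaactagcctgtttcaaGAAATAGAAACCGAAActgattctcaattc
Trim30a: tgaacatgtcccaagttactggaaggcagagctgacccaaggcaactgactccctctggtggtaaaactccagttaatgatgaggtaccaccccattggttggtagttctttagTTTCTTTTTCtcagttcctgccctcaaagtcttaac
Irf7: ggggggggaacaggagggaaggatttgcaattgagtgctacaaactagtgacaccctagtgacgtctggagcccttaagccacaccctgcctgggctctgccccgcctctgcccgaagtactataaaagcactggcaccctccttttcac
The windows lie at chr4:156200819-156200968 (minus strand) for Isg15, chr19:34640739-34640888 (plus) for Ifit1 and chr3:142620513-142620662 (plus) for Gbp2. They lie at chr8:71537473-71537622 (minus) for Bst2, chr11:48871421-48871570 (minus) for Irgm1, chr7:104465194-104465343 (minus) for Trim30a and chr7:141266425-141266574 (minus) for Irf7. Counting the base next to the start as -1, matches began at -78, -72 and -66 in Isg15, at -104 and -85 in Ifit1 and at -59 in Gbp2. They began at -130 and -124 in Bst2, at -30 and -24 in Irgm1 and at -36 in Trim30a, whose second annotated start also had 1 match, at position 2 after it. Irf7 had no match in its window. Stat2 and Eif2ak2, which also rose in exposed females at PND42, had 1 match each, at -222 and at position 18 after the start. Matches were therefore found in genes that fell at PND42 (Gbp2, Bst2 and Irgm1) and in some that rose (Trim30a, Stat2 and Eif2ak2). Rtp4 and Mx2, which also rose, had no promoter sequence available and were not searched. A match is a description of the sequence, and none of these data measure binding.

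Levels are given as normalised counts, which are reads divided by the library size factor of the authors. Differences are log2 fold changes ± SE of cadmium over control unless another pair is named. A gene was called where limma's adjusted p was under 0.05 over all genes tested. At PND42 females and males shared 1 fit, so the SE and p of either sex also hold the spread of the other. Libraries held 22.03 to 40.09 M reads. PND42 was scaled apart from PND1 and PND21, and counts are not compared across that line. Among PND42 controls, the headers of 1 female and 3 male columns show the group without a replicate number, and these libraries are called unnumbered. The header of the female one holds a tag under which the labels list a PND21 control, so which animal it is remains uncertain.

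Per kilobase of exon, Bst2, a membrane protein that tethers budding virions (tetherin), had the highest mean level of the members in all 8 groups. At PND1 it averaged 928 normalised counts per kb in cadmium females and 826 in control females. At PND42 it averaged 1594 in cadmium females, against 4124 in control females. Stat2, the signalling subunit of the ISRE-binding complex, and Ifi35 and Ifi27 held the next places in all 4 PND42 groups. Stat2 averaged 1082 normalised counts per kb in PND42 cadmium females and 623 in control females. The lowest members were Oas3 at PND1, with 9.5 in cadmium and 6.4 in control females, and Ifi44 at PND42, with 12.6 in cadmium and 12.8 in control females.

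Averaged over members, the log2 level of a library was 8.50, 8.86, 8.91 and 8.65 in the PND1 cadmium females, against 8.76, 8.44, 8.62 and 7.92 in the PND1 control females. At PND21 it was 7.99, 8.51 and 8.85 in cadmium females, against 8.47, 8.20 and 8.43 in control females. At PND42 the cadmium females stood at 9.0, 8.89, 8.52 and 8.83, and the control females at 8.68, 8.72, 8.76 and 8.66. The PND42 cadmium males stood at 8.64, 8.18, 8.61 and 8.29, and the control males at 8.42, 8.47, 7.95 and 8.47. In every exposure comparison the groups overlapped in this mean, as the plot of member means by library shows.

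**Figure D1:**
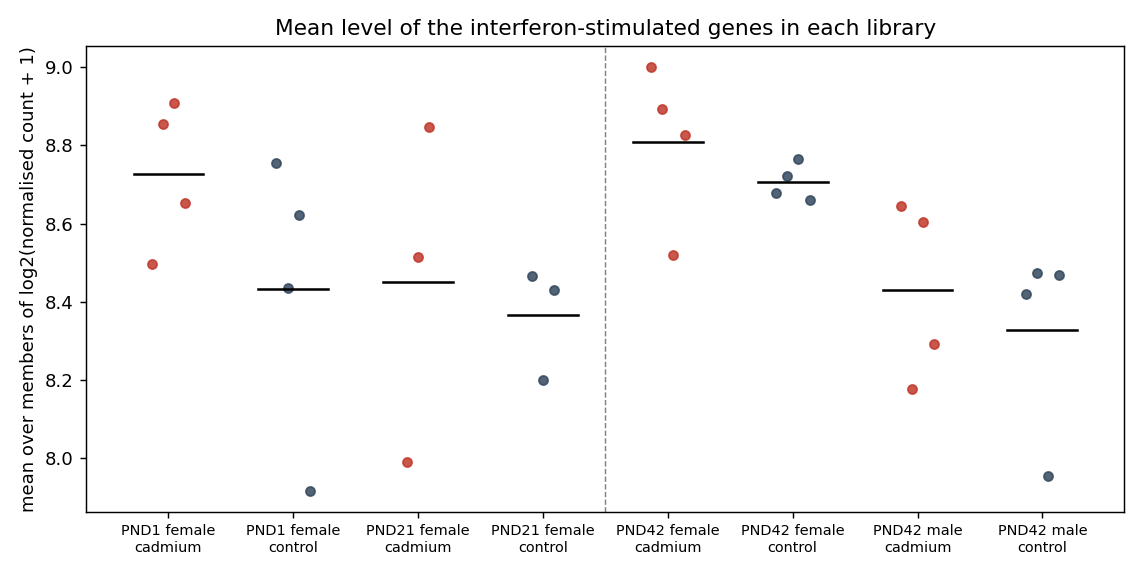
Mean over the members of log2(normalised count + 1) in each library (points; red, cadmium; blue-grey, control; line, group mean). The dashed line separates tables scaled apart, and PND1 control replicate 4 at 7.92 is the lowest point.

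In newborn females most members had a higher mean after cadmium, but none was called. Of 38 members, 32 had a higher and 6 a lower mean, where 49.2% of all genes had a higher and 50.8% a lower mean. The median log2 fold change was 0.29 over members and -0.01 over all genes. None of the 14059 genes tested was called (0%). At an unadjusted p under 0.05 there were 5 members (13.2%), against 14.5% of all genes, and limma's voom on recovered reads also called 0 members. All 11 members grouped as other antiviral effectors, all 4 signalling genes, all 4 inducible GTPases and all 3 genes of the ISG15 system had a higher mean. Of the IFIT family, proteins that bind viral RNA, 1 of 3 had.

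Gbp7, a guanylate-binding GTPase that attacks pathogen compartments, had the lowest p. It stood at 939, 1622, 1613 and 1968 normalised counts in the PND1 cadmium females, against 1004, 1128, 862 and 740 in the PND1 controls. Cadmium replicate 1 lay within the control range and the other 3 lay above it. The log2 fold change was 0.68 ± 0.22 (1536 ± 430 against 934 ± 169, SD, n = 4 each, adjusted p = 0.263 by limma). Trim30a, a regulator of inflammatory signalling in mouse, had 1009, 980, 951 and 874 in the cadmium females and 762, 838, 814 and 472 in the controls. Here the groups did not overlap (log2 fold change 0.43 ± 0.17). Irf9, the DNA-binding partner of STAT2, did not overlap either, with 1180, 1176, 1129 and 1060 in the cadmium females and 1049, 880, 1059 and 585 in the controls (0.38 ± 0.18).

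Parp14, an ADP-ribosyltransferase induced by interferon, stood at 640, 826, 891 and 593 in PND1 cadmium females, against 622, 587, 534 and 399 in controls (log2 fold change 0.46 ± 0.18). Ifi44 stood at 50.6, 58.4, 88.6 and 79.8 in the cadmium females, against 59.5, 37.2, 43.0 and 27.1 in the controls (0.74 ± 0.30). Irf1, a transcription factor that answers interferon gamma, stood at 1214, 1543, 1572 and 1327 in the cadmium females, against 1077, 1459, 1020 and 876 in the controls (0.37 ± 0.16). These 3 overlapped between groups, and control replicate 4 was the lowest control in each. Across all genes, 2.92% lay wholly higher in cadmium without overlap, which 2 of 38 members did, and 4.76% lay wholly lower, which 0 members did. Without control replicate 4 the median of the members was 0.12. That library also had the lowest mitochondrial share of reads at this age, 4.88%. Its part in the result was not tested. In the authors' deposited table for PND1, 0 of the 17 members with an adjusted p passed 0.05, where 72 of 6790 genes did.

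Of 6 interferon receptor genes, 5 had a lower mean at PND1 and none was called. No interferon gene itself had a tested row at any age. Of 13 signalling genes 10 had a higher mean, of 55 further interferon-stimulated genes 38 had, and 0 were called in either list. Nlrc5, the activator of MHC class I genes, averaged 367 normalised counts in cadmium and 128 in control females (log2 fold change 1.57 ± 0.29, adjusted p = 0.244 by limma). Beside these, 11 of 11 erythroid markers had a higher mean, and their summed level was 251190 to 553292 in cadmium and 237399 to 390279 in control females. Of 12 Kupffer markers, 9 had a lower mean, with sums of 9851 to 13404 in cadmium and 11489 to 14432 in control females. Of 12 sinusoidal endothelial markers, 8 had a higher mean and 4 had an unadjusted p under 0.05. Their sums did not overlap, at 16706 to 19805 in cadmium and 13379 to 14909 in control females. Of 9 hepatocyte markers, 7 had a lower mean. No marker in these lists was called. The part of these cells in the member levels was not tested.

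At PND21 the members were split evenly. Of 38, 19 had a higher and 19 a lower mean in cadmium females, the median log2 fold change was 0.01 (all genes -0.01), and 48.9% of all genes had a higher and 51.1% a lower mean. None of the members was called, against 5 of 13886 genes (0.036%). At an unadjusted p under 0.05 there were 2 members (5.26%), against 9.57% of all genes. Voom on recovered reads called 0 members. Beside this, 9 of 9 hepatocyte markers had a lower mean (median -0.59) and 8 of 8 B cell markers a higher mean (median 0.82). B cell sums were 346 to 536 in cadmium and 222 to 302 in control females, without overlap. Of 12 Kupffer markers, 10 had a higher mean, and no marker of the 3 types was called. Their part in the member levels was not tested. Of all genes, 8.21% lay wholly higher in cadmium and 8.42% wholly lower, which 2 members and 1 member did.

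Usp18, the protease that strips ISG15 from proteins and damps interferon signalling, stood at 234, 280 and 227 normalised counts in PND21 cadmium females, against 111, 167 and 136 in controls. The groups did not overlap. The log2 fold change was 0.85 ± 0.23 (247 ± 28.4 against 138 ± 28.4, SD, n = 3 each) and limma's adjusted p was 0.4. In the authors' deposited table for PND21, Usp18 was the 1 member of 37 with an adjusted p under 0.05 (log2 fold change 0.84, adjusted p = 0.0168), where 446 of 14235 genes passed. Ifi35, an interferon-induced leucine zipper protein, had the opposite sign, with 977, 1108 and 1002 in cadmium females and 1368, 1239 and 1461 in controls (-0.40 ± 0.16), again without overlap.

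Gbp2, a GTPase of the same family as Gbp7, had 64.3, 85.1 and 134 normalised counts in PND21 cadmium females and 36.5, 85.1 and 37.4 in controls, so that the groups met. Mx2, of a dynamin-like antiviral family, is annotated as a polymorphic pseudogene. It had 445, 323 and 360 in cadmium females and 373, 211 and 248 in controls. Oasl1 had 70.6, 58.9 and 108 in cadmium females and 52.5, 35.9 and 59.6 in controls. All 3 overlapped, with log2 fold changes of 0.87 ± 0.43, 0.47 ± 0.25 and 0.65 ± 0.36. Oas2, which makes the 2-5A messenger that activates RNase L, overlapped with the opposite sign, at 310, 445 and 311 in cadmium females and 530, 389 and 418 in controls (-0.34 ± 0.22).

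The change in the exposure effect between ages was tested in 1 fit of PND21 and PND1 females. It passed for 2 of 14259 genes (0.014%) and for 0 members. At an unadjusted p under 0.05 there were 3 members (7.89%), against 9.07% of all genes, and voom called 0. These were Ifi35 (-0.58 ± 0.20), Gbp7 (-0.99 ± 0.37) and Trim30a (-1.01 ± 0.46), given as the PND21 effect minus the PND1 effect on the log2 scale. Trim30a has near-identical neighbours such as Trim30d, and reads shared between them could have been split by the counting.

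**Figure D2:**
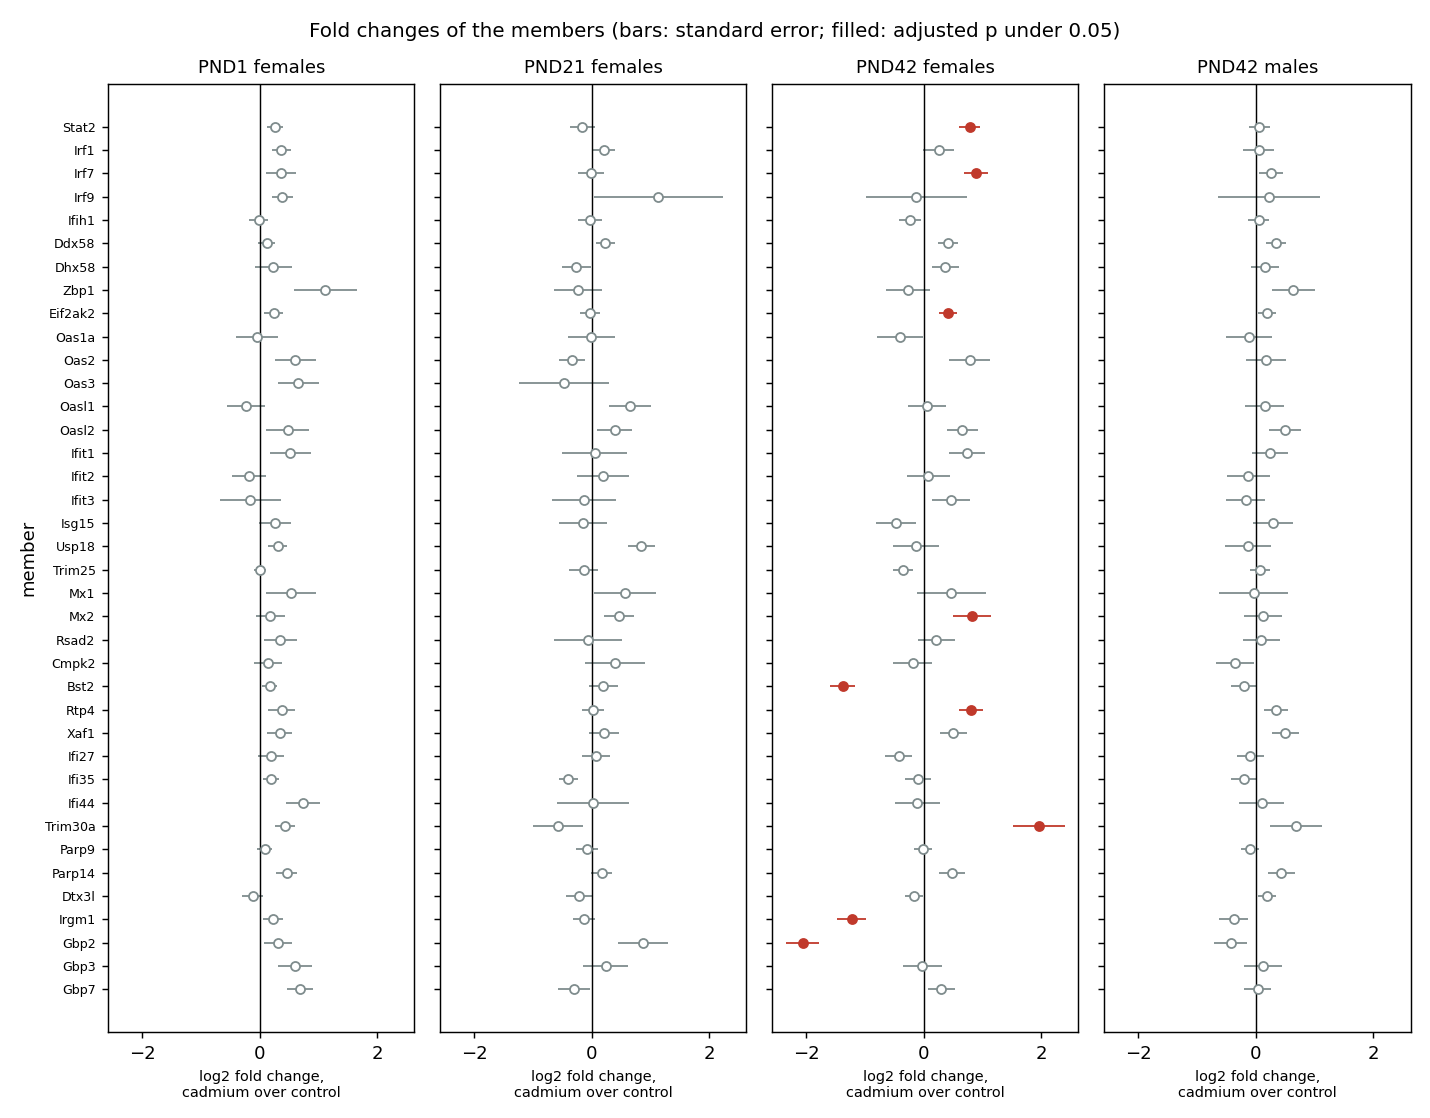
Log2 fold change of cadmium over control for each member in the 4 exposure comparisons (points; bars, SE; filled red, adjusted p under 0.05). PND42 females are the 1 panel with filled points, 6 to the right of 0 and 3 to the left.

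In PND42 females the members moved in both directions. Of 37, 6 rose after cadmium (Irf7, Trim30a, Stat2, Rtp4, Eif2ak2 and Mx2) and 3 fell (Gbp2, Bst2 and Irgm1). The median over members was 0.08 on the log2 scale, against 0.00 over all genes. That was 24.3% of members called, in a comparison where 40.2% of 13091 genes were called, 18.9% higher and 21.4% lower. The members' share was below the background. At an unadjusted p under 0.05 there were 15 members (40.5%), against 48.6% of all genes. The members that rose included 2 of the 4 signalling genes. Of the 4 measured oligoadenylate synthetases, the 3 IFIT genes, the 3 genes of the ISG15 system and the 3 of the PARP and DTX3L group, 0 were called.

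The 3 that fell had the lowest p values. Gbp2 (chr3:142620602-142638008) stood at 37.4, 52.7, 41.0 and 55.2 normalised counts in the PND42 cadmium females, against 180, 265 and 141 in numbered controls and 214 in the unnumbered control. The highest exposed value was far below the lowest control. The log2 fold change was -2.06 ± 0.28 (46.6 ± 8.69 against 200.3 ± 52.6, SD, n = 4 each, adjusted p = 5.09e-05 by limma). Bst2 (chr8:71534255-71537456), whose promoter holds 2 overlapping ISRE matches, had 1750, 1261, 1146 and 1600 in the cadmium females, against 3565, 3658, 4414 and 3261 in the control females. It fell to 1439 ± 283 in cadmium females, against 3724 ± 490 in controls (-1.38 ± 0.22, adjusted p = 0.000147 by limma).

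Irgm1 (chr11:48861968-48871683), an immunity-related GTPase that protects cells from the pathogen-killing members of its family, had 898, 832, 658 and 997 normalised counts in PND42 cadmium females, against 1821, 2187, 2082 and 1768 in controls. The groups were well apart, with a log2 fold change of -1.22 ± 0.25 (847 ± 143 against 1965 ± 202, adjusted p = 0.000949 by limma). Of the other inducible GTPases, Gbp3 averaged 287 ± 83.1 in cadmium and 287 ± 60.9 in control females. Gbp7 averaged 1136 ± 157.6 in cadmium and 960 ± 343 in control females, and neither was called.

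Among signalling genes, Irf7, the factor that amplifies type I interferon production, stood at 1075, 854, 703 and 795 normalised counts in PND42 cadmium females, against 475, 434, 483 and 429 in controls. It rose by 0.90 ± 0.20 on the log2 scale (857 ± 158.1 against 455 ± 27.8, adjusted p = 0.0021 by limma). Irf7 overlaps Phrf1 on the other strand, and the sources used here do not say whether counting used strand. Stat2 (chr10:128270559-128292849) stood at 5270, 5729, 8084 and 6574 in the cadmium females and at 3489, 3348, 4040 and 3892 in the controls. It rose by 0.78 ± 0.19 (6414 ± 1238 against 3692 ± 327, adjusted p = 0.00309 by limma). In both genes every cadmium library was above every control. Irf1 also had no overlap, at 1629 ± 29.8 in cadmium and 1372 ± 137 in control females, but was not called. Its log2 SD was 0.03 in cadmium and 0.14 in control females, against 0.56 in cadmium and 0.60 in control males.

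Trim30a (chr7:104409025-104465193) showed the steepest rise, with 1569, 1619, 2014 and 1115 normalised counts in PND42 cadmium females, against 401, 323, 529 and 362 in controls. Its log2 fold change was 1.96 ± 0.44 (1579 ± 368 against 404 ± 89.3, adjusted p = 0.00272 by limma). Rtp4, a receptor chaperone that also restricts flaviviruses, had 841, 739, 1074 and 820 in cadmium females, against 466, 436, 460 and 621 in controls (0.81 ± 0.21, adjusted p = 0.00484 by limma). Its annotated span overlaps that of Masp1 on the other strand, a gene that liver transcribes strongly. The extent of the overlap was not measured. Neither Trim30a nor Rtp4 overlapped between groups.

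Eif2ak2, the kinase PKR that stops translation on double-stranded RNA, had 829, 699, 726 and 730 normalised counts in PND42 cadmium females, against 606, 557, 576 and 504 in controls (log2 fold change 0.41 ± 0.15, adjusted p = 0.0411 by limma). Mx2, listed as a polymorphic pseudogene in GENCODE vM21, averaged 570 ± 52.5 in cadmium and 322 ± 39.8 in control females (0.82 ± 0.32, adjusted p = 0.0483 by limma). The log2 SD of Mx2 was 0.14 in cadmium and 0.18 in control females, against 0.53 in cadmium and 0.84 in control males. The calls of Eif2ak2 and Mx2 lie close to the threshold. Each was lost in 10 of 17 alternatives, among them scaling by total reads and leaving out any 1 of the 8 female libraries, with adjusted p up to 0.1464 for Eif2ak2 (with the replicate block) and 0.106 for Mx2. The other 7 calls held in all 17, with the highest adjusted p at 0.0217, for Rtp4. Ddx58, Ifit1, Oasl2, Oas2, Xaf1 and Parp14 had an unadjusted p under 0.05 and were not called. They had log2 fold changes of 0.42, 0.74, 0.66, 0.78, 0.50 and 0.48. In all, 7 members lay wholly higher (22.3% of all genes did) and 3 wholly lower (23.5%).

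Isg15, the ubiquitin-like modifier with 3 ISRE matches, averaged 193 ± 59.8 normalised counts in PND42 cadmium females and 284 ± 142 in controls, and Rsad2 (viperin) averaged 201 ± 49.5 in cadmium females and 176 ± 55.8 in controls. Neither was called. The receptors had a lower mean in 5 of 5 tested genes. Ifnar2, a chain of the type I receptor, fell to 190 normalised counts in cadmium females, against 470 in controls (-1.32 ± 0.23, adjusted p = 0.000323 by limma), and Ifngr1 fell to 381 in cadmium females, against 618 in controls (-0.70 ± 0.18, adjusted p = 0.00625 by limma). Of 56 further interferon-stimulated genes, 8 rose and 9 fell, Lgals9 (-1.55 ± 0.19), Ly6e (-1.60 ± 0.24) and Shisa5 (-1.01 ± 0.18) having the lowest p. Of 17 genes of MHC class I presentation, 1 rose, which was Nlrc5 (1.28 ± 0.31), and 4 fell, among them Tap2 (-0.89 ± 0.22) and H2-T23 (-2.37 ± 0.62). Of 12 signalling genes beyond the members, 3 rose and 1 fell, and of 13 genes of nucleic acid sensing 2 rose and 1 fell, which was Mavs (-0.91 ± 0.21).

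Several other measures differed between the same PND42 female groups. Mitochondrial reads made up 27.6 ± 6.29% in cadmium and 8.49 ± 3.15% in control females. The mean log2 level of the nuclear RNAs Malat1 and Neat1 was 15.65 ± 0.18 in cadmium and 13.81 ± 0.59 in control females. Both had an exact two-sided permutation p of 0.0286, the smallest that 4 against 4 allows, or 0.143 adjusted over 10 such tests. Kupffer markers had a lower mean in 11 of 12 genes, 5 of them called, with sums of 4946 to 8852 in cadmium and 7816 to 13518 in control females. Of 12 sinusoidal endothelial markers 5 fell and 2 rose, with sums of 11536 to 12145 in cadmium and 13533 to 14108 in control females. Of 9 hepatocyte markers 6 fell and 0 rose. Of 8 listed markers of plasmacytoid dendritic cells only 3 had a row, and 2 of these rose. Of 8 B cell markers, 6 had a higher mean, 2 rose and 0 fell. Of 5 T and NK cell markers, 4 had a lower mean, 0 rose and 1 fell. No marker with a row was at 0 in these groups, but some listed markers had no row. At PND42 rows were found for 3 of 10 neutrophil, 6 of 12 erythroid and 5 of 10 T and NK cell markers. The part of these measures in the member changes was not tested.

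**Figure D3:**
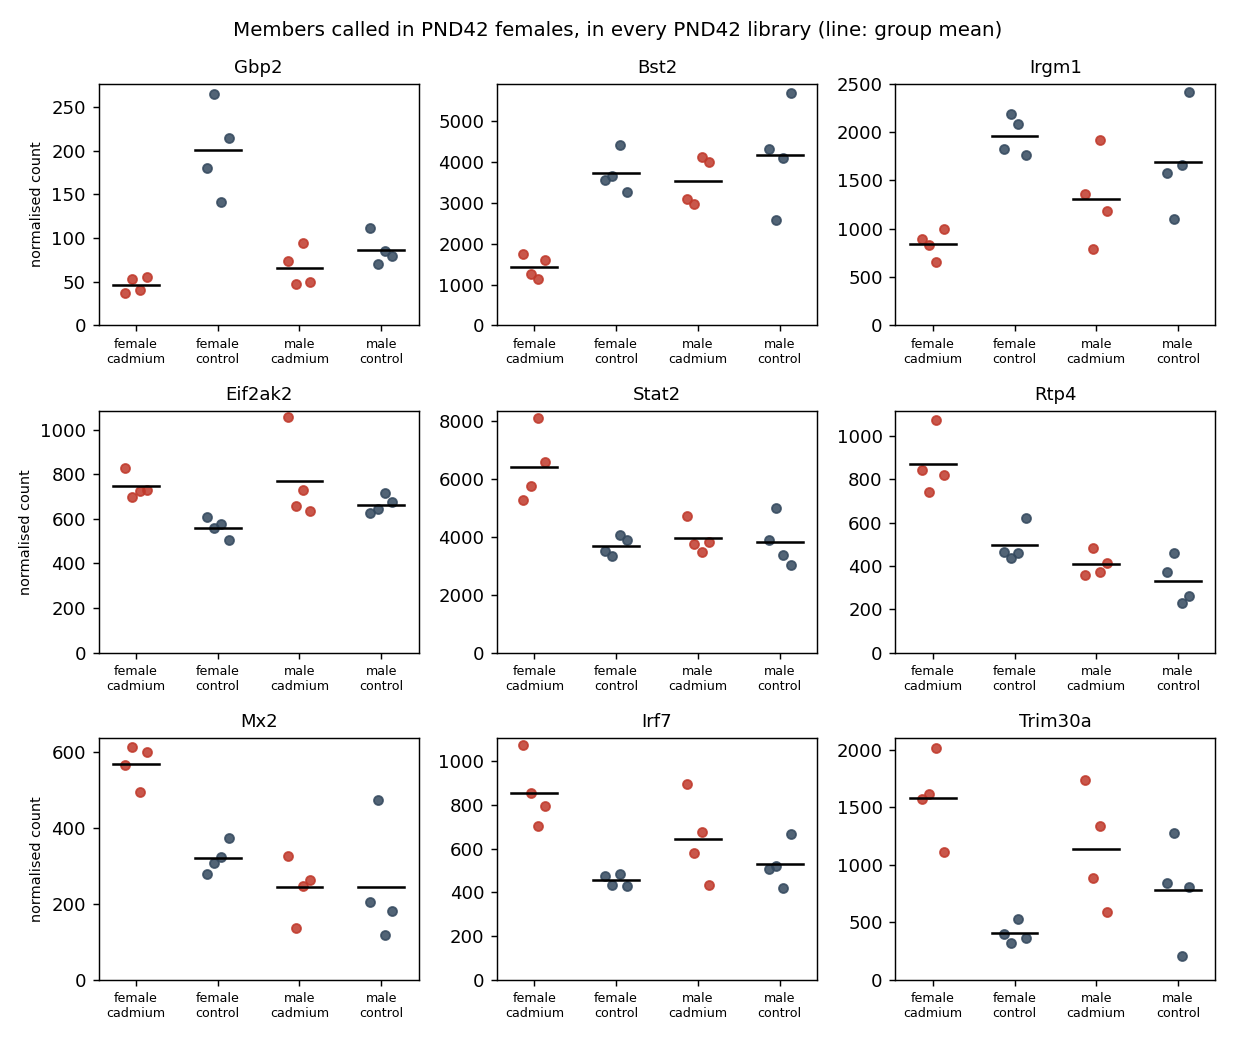
Normalised counts of the 9 members called in PND42 females, in every PND42 library (points; red, cadmium; blue-grey, control; line, group mean; axes from 0). Female groups separate in all 9 panels, while the male groups overlap in each.

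In PND42 males 0 of 37 members and 0 of 13091 genes were called (0%), and voom called 0 members. Of the members, 25 had a higher and 12 a lower mean in cadmium males, where 47.1% of all genes had a higher and 52.9% a lower mean. The median was 0.10, against -0.03 over all genes. Only Xaf1, a pro-apoptotic interferon target, had an unadjusted p under 0.05 (2.70% of members, against 7.12% of all genes). It stood at 309, 195, 196 and 202 normalised counts in cadmium males, against 178 in control replicate 1 and 198, 98.0 and 170 in the unnumbered controls. Replicate 1 was far above the other exposed males, and the groups overlapped (0.50 ± 0.23, adjusted p = 0.622 by limma). No member lay wholly higher or lower, which 0.894% and 0.833% of all genes did. Beside this, 7 of 8 B cell markers had a higher mean (median 1.57) and 6 had an unadjusted p under 0.05, with sums of 455 to 628 in cadmium and 169 to 316 in control males, without overlap. Kupffer and sinusoidal endothelial markers each had a lower mean in 11 of 12 genes. None of these markers was called, and their part in the member levels was not tested.

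The next members by p in males were sensors and effectors with higher means. Ddx58, the RNA sensor RIG-I, had 571, 524, 593 and 472 normalised counts in cadmium males, against 499, 509, 331 and 381 in controls (log2 fold change 0.35 ± 0.17). Zbp1, a sensor of left-handed nucleic acids that triggers necroptosis, had 412, 101, 270 and 156.95 in cadmium males, against 103, 150.6, 127 and 147.5 in controls (0.64 ± 0.37). Both overlapped. For Zbp1, 3 of the 4 cadmium libraries lay above every control and the lowest, replicate 2, lay below every control. Parp14 had 929, 435, 642 and 604 in cadmium males and 478, 684, 336 and 420 in controls (0.44 ± 0.23). Oasl2 had 140, 112, 92.8 and 92.3 in cadmium males and 90.5, 94.8, 64.9 and 59.9 in controls (0.50 ± 0.27). Rtp4 had 360, 484, 374 and 413 in cadmium males and 371, 460, 230 and 263 in controls (0.34 ± 0.21). In Parp14, Oasl2 and Rtp4 the unnumbered second control was low but the groups overlapped. Without that library the median over members was -0.02.

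Whether the exposure effect differed between the sexes was tested directly at PND42. The difference, male effect minus female effect, passed for 2 members, Gbp2 and Bst2 (5.41%), and for 7.91% of all genes, 4.07% in the direction of those 2. Gbp2 stood at 73.3, 46.8, 94.1 and 49.2 normalised counts in cadmium males, against 111, 70.4, 84.7 and 79.3 in control males. The male groups overlapped, with a log2 fold change of -0.43, and the difference from females was 1.64 ± 0.40 on the log2 scale (adjusted p = 0.0208 by limma). Bst2 stood at 3086, 2974, 4134 and 3991 in cadmium males, against 4322, 2587, 4100 and 5695 in control males, with a difference of 1.19 ± 0.31 (adjusted p = 0.0279 by limma).

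For the other members the difference between the sexes was not called. It was -0.72 ± 0.26 for Stat2, 0.85 ± 0.35 for Irgm1, -0.64 ± 0.28 for Irf7 and -1.28 ± 0.63 for Trim30a, with adjusted p of 0.0971 to 0.217. Trim30a stood at 1739, 882, 1339 and 590 in cadmium males, against 840, 1274, 209 and 810 in control males, a spread that took in the control females. Irgm1 stood at 1357, 793, 1919 and 1182 in cadmium males and at 1572, 1099, 1662 and 2414 in control males. The count of 2 depended on single libraries. It fell to 0 without control female 3 and to 1 without control female 4, cadmium female 2, cadmium female 3, cadmium male 3 or cadmium male 4, and it was 4 without the third unnumbered control male. The receptor Ifnar2 also differed by sex (1.35 ± 0.33, adjusted p = 0.0197 by limma).

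Among PND42 controls, the members tended to be lower in males. Of 37, 0 were called higher and 5 lower (13.5%, against 6.93% of all genes, 4.58% higher and 2.35% lower), and the median log2 fold change of male over female was -0.27, against -0.02. Gbp3 averaged 105 ± 22.5 normalised counts in control males and 287 ± 60.9 in control females (-1.45 ± 0.33, adjusted p = 0.0138 by limma). Gbp2 averaged 86.4 ± 17.5 in males and 200.3 ± 52.6 in females (-1.19 ± 0.28). Zbp1 averaged 132 ± 21.8 in males and 380 ± 146.3 in females (-1.46 ± 0.37), Parp14 480 ± 148.3 in males and 803 ± 128 in females (-0.78 ± 0.23), and Ddx58 430 ± 88.0 in males and 641 ± 124 in females (-0.58 ± 0.17). The first 4 did not overlap and Ddx58 did. In all, 7 members lay wholly lower in males (5.64% of all genes did) and 1, Eif2ak2, wholly higher (6.75%). The control females in this comparison are those of the exposure comparison above.

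The count of 5 changed with the processing. It was 16 under scaling by total reads, 3 by voom and 0 without the libraries high in Irf9 that are described below. Leaving out 1 library moved it to between 1, without control female 3, and 10, without the first unnumbered control male. It was 2 or 3 without each of the other 6. Beside it, 12 of 12 Kupffer markers had a lower mean in control males, 6 of them called, with sums of 4327 to 6781 in males and 7816 to 13518 in females. All 7 tested mitochondrially encoded genes had a higher mean in control males, 5 of them called (median 1.35). The mitochondrial share of reads was 17.1 ± 6.49% in control males and 8.49 ± 3.15% in control females (exact two-sided permutation p = 0.0571, or 0.19 adjusted over 10 tests). The part of these measures was not tested.

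Between birth and weaning the control females showed the widest shifts, and in both directions. At PND21 against PND1, 6 of 38 members rose (Bst2, Stat2, Ifi35, Ifi27, Dhx58 and Oas2) and 5 fell (Rsad2, Cmpk2, Usp18, Gbp2 and Ifit2). The median was 0.03 on the log2 scale, against 0.01 over all genes. That is 28.9% of members, where 52.9% of 14233 genes were called, 26% higher and 26.9% lower. All 11 lay apart between ages, 6 wholly higher (27.4% of all genes) and 5 wholly lower (27.9%). PND1 and PND21 animals are different mice.

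Bst2 stood at 2604, 2765 and 3420 normalised counts in PND21 controls, against 794, 715, 847 and 626 in PND1 controls. It rose by 1.97 ± 0.16 on the log2 scale (2929 ± 432 against 746 ± 96.3, SD, n = 3 and 4, adjusted p = 6.12e-06 by limma). Stat2 stood at 6069, 5422 and 5377 at PND21, against 2331, 2719, 2496 and 2144 at PND1 (1.22 ± 0.15, adjusted p = 8.06e-05). Ifi35 stood at 1368, 1239 and 1461 at PND21, against 716, 721, 592 and 515 at PND1 (1.10 ± 0.16, adjusted p = 0.000266). In all 3 the lowest PND21 library was well above the highest PND1 library. Ifi27 (1.38 ± 0.26), the RNA sensor Dhx58 (1.37 ± 0.34) and Oas2 (1.18 ± 0.32) rose as well, the last being lost under scaling by total reads.

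Rsad2 (chr12:26442746-26456452), which makes a chain-terminating nucleotide that halts viral polymerases, showed the steepest fall. It stood at 247, 197 and 180 normalised counts in PND21 controls, against 3942, 1336, 1985 and 1753 in PND1 controls. PND1 control 1 was far above the rest, but every PND1 library was above every PND21 library by a wide margin. The log2 fold change was -3.32 ± 0.32 (208 ± 34.6 against 2254 ± 1157, adjusted p = 2.78e-05 by limma). Per kilobase Rsad2 ranked second among members at PND1. Its neighbour Cmpk2 (chr12:26469204-26479837), a nucleotide kinase that lies head to head with it, stood at 74.4, 61.1 and 47.1 at PND21, against 482, 234, 314 and 213 at PND1 (-2.28 ± 0.31, adjusted p = 0.000163). PND1 control 1 was the highest library for both genes.

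Usp18 stood at 111, 167 and 136 normalised counts in PND21 controls, against 373, 301, 474 and 382 in PND1 controls (log2 fold change -1.47 ± 0.21, adjusted p = 0.000282 by limma). Gbp2 (-2.13 ± 0.32) and Ifit2 (-1.42 ± 0.25) fell too, Gbp2 averaging 53.0 ± 27.8 at PND21 and 219 ± 38.3 at PND1. Isg15, Ifit1, Irf7 and Irf9 had log2 fold changes of 0.05, 0.23, 0.19 and 0.07 and were not called. So within the IFIT family Ifit2 fell while Ifit1 and Ifit3 (-0.32) were not called, and of the ISG15 system only Usp18 was called.

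In cadmium females the same genes stood as follows. Rsad2 averaged 263 ± 253 at PND21 and 2659 ± 376 at PND1, Bst2 3424 ± 935 at PND21 and 838 ± 90.2 at PND1, and Stat2 5101 ± 1006 at PND21 and 2934 ± 463 at PND1. The test of the exposure effect between ages, given above, called 0 members.

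Other lists moved with age as well. All 6 receptor genes fell, led by Ifngr2 (-1.82 ± 0.16). Of 17 MHC class I genes 10 rose and 0 fell, led by B2m, at 69595 normalised counts at PND21 and 13400 at PND1 (2.36 ± 0.20), and Nlrc5, at 706 at PND21 and 128 at PND1 (2.53 ± 0.30). Of 56 further interferon-stimulated genes 15 rose and 13 fell, and Ifitm3, which blocks viral entry, rose by 2.94 ± 0.16. Among blood cell markers, 9 of 10 fell for neutrophils, 10 of 10 for B cells and 11 of 11 for erythroid cells. Of 6 T and NK cell markers, 3 rose and 2 fell. Neutrophil sums were 1030 to 2423 at PND21 and 42483 to 51442 at PND1. Of 12 Kupffer markers 8 fell and 2 rose, and of 9 hepatocyte markers 6 rose. The part of these cells was not tested. When libraries were scaled by total reads, the all-gene median was -0.50 and the member median -0.48, with 5 members called higher and 12 lower.

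**Figure D4:**
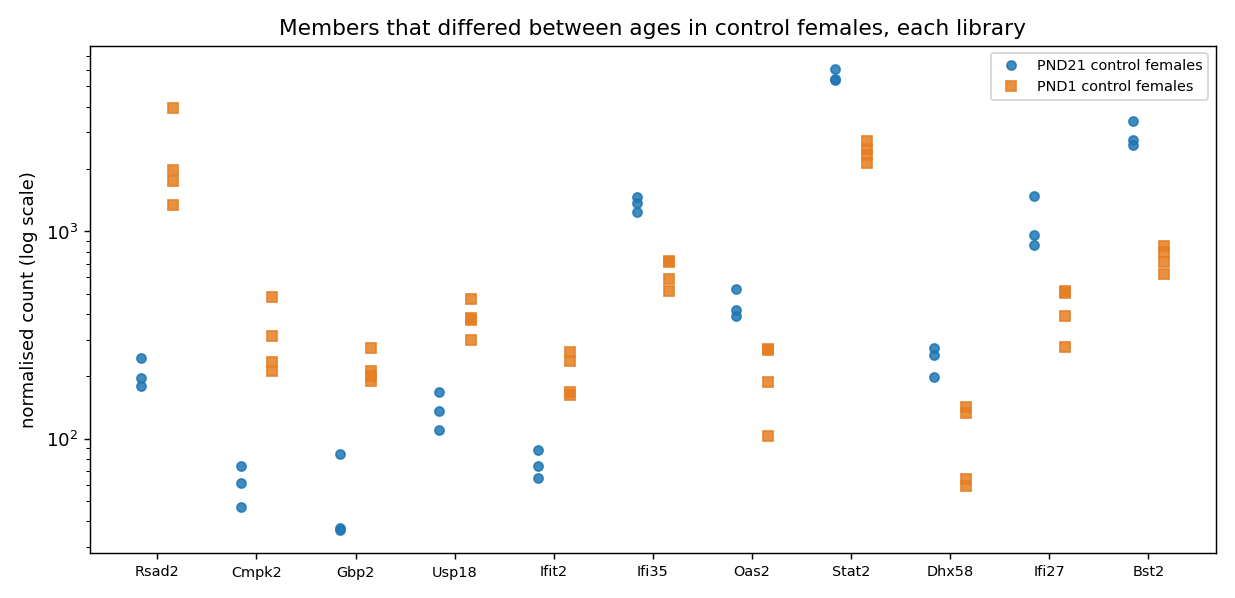
Normalised counts (log axis) in each control library for the 11 members that differed between PND21 (circles) and PND1 (squares) females, ordered by fold change. Rsad2 at the left lies between 180 and 247 at PND21, against 1336 to 3942 at PND1, and no gene overlaps between ages.

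Irf9 (chr14:55603571-55610030) stood apart from the other members, because 4 libraries from 4 different groups were far above the rest. They were PND21 cadmium female 2 at 11841 normalised counts, PND42 cadmium male 2 at 8066, PND42 control female 3 at 4446 and the third unnumbered PND42 control male at 4211. At PND21 the other 5 libraries lay between 781 and 1063, with a median of 860. At PND42 the other 13 lay between 478 and 1294, with a median of 823. The PND1 libraries lay between 585 and 1180. The high libraries occurred in exposed and control animals and in both sexes, and no exposure comparison called Irf9.

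With the high library, Irf9 averaged 4501 ± 6356 in PND21 cadmium females (n = 3) and 921 ± 124 in controls. Without it the cadmium females averaged 832 ± 71.1 (n = 2). In PND42 males it averaged 2551 ± 3678 in cadmium and 1607 ± 1746 in control animals, and without the high libraries 712 ± 103 in cadmium and 739 ± 236 in control animals (n = 3 each). In PND42 females it averaged 1139 ± 116 in cadmium and 1720 ± 1819 in control animals, which averaged 812 ± 93.1 without control female 3 (n = 3).

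Against its own group, Irf9 was higher in the 4 libraries by 2.46 to 3.83 on the log2 scale. Rnf31, which overlaps the start of Irf9 on the same strand, differed by -0.15 to 0.43, and Ipo4 on the other side by -0.23 to 0.08. Of the 5 annotated genes with rows on either side, Tm9sf1 was above its own group in all 4 libraries, by 0.08 to 1.14, and Fitm1 was below it in all 4, by -3.17 to -0.42. The mean of all members, Irf9 included, was 8.51, 8.18, 8.72 and 8.47 in these libraries, within the range of the other libraries of the same age. The 8.18 of PND42 cadmium male 2 was the lowest of its group. The tags of the 4 libraries begin with the numbers 13, 13, 38 and 38. Number 38 occurs in 2 libraries, both high, and 13 in 3, of which PND1 cadmium female 1 was not high, at 1180. The labels do not say what the numbers mark, and a link was not tested. The PND42 male comparison had 0 members called with or without these libraries.

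**Figure D5:**
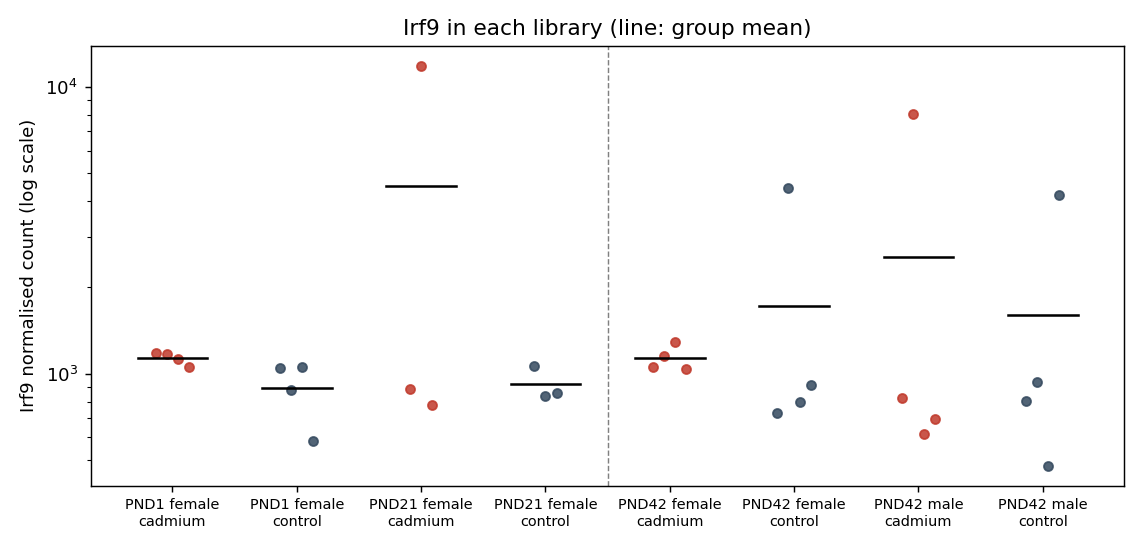
Irf9 normalised counts (log axis) in each library (points; red, cadmium; blue-grey, control; line, group mean). The dashed line separates tables scaled apart. Across 8 groups, 4 libraries lie between 4211 and 11841 and the other 26 between 478 and 1294.

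As a description over the 30 libraries, each member's deviation from its group mean was correlated with the mean deviation of the other members, all sharing libraries and size factors. The median correlation was 0.56 over 38 members, and 22 (57.9%) were above 0.5. For 12758 other genes with rows in all 3 tables, the same correlation with the mean of the members had a median of 0.0073, and 1.403% were above 0.5. Ifit1 (0.86), Irf7 (0.86), Xaf1 (0.85) and Gbp3 (0.78) followed the others most closely. Stat2 (-0.09), Irf9 (-0.07) and Dtx3l (0.01), which encodes the ubiquitin ligase partner of PARP9, followed them least. The value for Irf9 includes the 4 libraries high in it, and the SD of its deviations was 1.01 on the log2 scale. Of the genes that fell at PND42, Irgm1 was at 0.40, Bst2 at 0.39 and Gbp2 at 0.29, and of those that rose Trim30a was at 0.64 and Rtp4 at 0.43. Dtx3l and Parp9 overlap on opposite strands, so that their counts may share reads.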

How the data were processed

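Liver RNA was sequenced as single-end 125 bp reads, from RNA of integrity number 7 or more per the labels. Per the submitters' processing notes FastQC, STAR and featureCounts were used with build mm10, and no versions were stated. The authors deposited log2 values per gene and library, of reads divided by a size factor plus 1: whole reads came back for 100% of values within 0.1. The deposited signal column (baseMean) is the authors' mean normalised count. For PND1 and PND21 the authors deposited in the same tables their fold changes, p-value columns and score columns (standard error and statistic), which were used only where named.

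The deposited log2 values were analysed with limma 3.58.1 under R 4.3.3, using a trend and robust empirical Bayes, on genes with at least 10 normalised counts in as many libraries as the smallest group, with two-sided Benjamini-Hochberg adjustment at 0.05. PND42 comparisons shared 1 fit of 4 groups. Single measures were compared by exact permutation (scipy 1.17.1, Python 3.11.15). Alternatives were other pseudocounts, filters and scalings, voom on recovered reads, a replicate block and leaving out libraries. The fits were tested on simulated data. Depth was 22.03 to 40.09 M reads, and replicates are separate samples whose litters the labels do not give. p-values then measure the spread between these samples.

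The members and lists were chosen with earlier results of these data known. Named genes were any members, with values in every library for called members (8 of lowest p where more passed), otherwise for the 6 of lowest p, and up to 3 genes of lowest p from each pathway list. Same-numbered replicates did not pair in the values. Of the 18 numbers with which sample tags begin, 9 occurred in at least 2 groups, and pairing by them was not tested. Annotation was from GENCODE vM21, on GRCm38.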

Additional observations from a re-analysis of the deposited data

Results flagged for a closer look

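Single samples far from the rest of their group of 4 were found 12 times among 174 group and gene combinations, where chance gives about 1 in 20. At PND1, cadmium female 1 was low in Gbp3 (187 normalised counts) and in Zbp1 (124), and cadmium female 3 was high in Mx2 (348). PND1 control female 4 was low in Oasl2 (73.9) and Trim30a (472). At PND42, cadmium female 3 was low in Ifi27 (642) and Xaf1 (255), the library with the lowest mean of all members in its group. Cadmium male 1 was high in Xaf1 (309) and cadmium male 4 was low in Gbp7 (689). The second unnumbered control male had the lowest mean log2 level over the members in its group, at 7.95. Irf9 was far above the rest in PND42 control female 3 (4446) and in cadmium male 2 (8066).

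The exposure effect differed between the sexes at PND42 for Gbp2, by 1.64 on the log2 scale (adjusted p = 0.0208 by limma), and for Bst2, by 1.19 (adjusted p = 0.0279 by limma), male minus female.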

How the results depend on the processing

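Of 308 recomputed counts, medians and means, 286 stayed the same by the rules used (a count within 1.5 times, a value within 1 SD) and 22 moved. No fold change changed sign for a member called or of lowest p in a comparison. Irf9 met that rule at PND1 only, and its direction in PND21 and PND42 females turned on the libraries high in it. At PND21 it averaged 4501 normalised counts in cadmium females, or 832 without the high library, against 921 in controls. In PND42 females it averaged 1139 in cadmium animals, against 1720 in controls, or 812 without control female 3. Member medians near 0 did change sign when 1 library was left out, with ranges of -0.14 to 0.29 at PND21 (0.01 with all libraries), -0.02 to 0.17 in PND42 males (0.10), -0.19 to 0.05 for the difference between the sexes (-0.09) and -0.13 to 0.18 for PND21 against PND1 controls (0.03). Scaling by total reads gave 17 called members and a median of -0.48 for control females at PND21 against PND1, and 16 members and a median of -0.64 for PND42 control males against females. The count in males against females was 3 by voom and 0 without the libraries high in Irf9, an alternative chosen after seeing the data. Leaving out 1 library gave 7 to 10 members and a median of 0.014 to 0.26 in PND42 females, 1 to 10 members in PND42 control males against females, and 0 to 4 for the difference between the sexes. It gave 0 members throughout at PND1, at PND21 and in PND42 males, and a median of 0.12 to 0.39 at PND1. Among single genes, 55 recomputed values lost a call and 5 gained one, all in the same direction.

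Same-numbered replicates were not paired by the values, with correlations of deviations from -0.08 to 0.21. With the replicate block, 0 members were called at PND1 and PND21, 8 in PND42 females (numbered pairs only, without Eif2ak2) and 13 for PND21 against PND1 controls. No paired analysis was possible for males or for the comparisons between the sexes, because male controls share fewer than 2 numbers with the other groups. Counts near the filter of 10 are limited by depth, and 3 or 4 animals a group limit every comparison.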
